A study of Mus musculus with 16 samples.

Results

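The lipid by itaconate interaction was measured in primary mouse hepatocytes as the difference of differences between 4 groups: the change with itaconate in lipid-loaded cells (lipid + itaconate against lipid) minus the change with itaconate in cells without lipid (itaconate against untreated). A value of 0 on the log2 scale means that the fold changes of both treatments multiplied when combined. A positive value means that the combined level lay above that product, and a negative value that it lay below. All 16 of the 16 RNA-seq libraries entered, and 11675 of 55450 genes were tested, those that averaged 1 CPM (count per 1000000 counts of a library) or more. Untreated, itaconate, lipid and lipid + itaconate-treated hepatocytes were each represented by 4 libraries, with replicate letters A to D that run through all groups. The hepatocytes were from livers of wild-type mice (the animals of the study were C57BL/6J males aged 8 to 12 weeks) and were treated overnight in DMEM with 5% FBS and insulin-transferrin-selenium, which all groups shared. Itaconate was given as 10 mM sodium itaconate, and lipid as a defined mixture of fatty acids and cholesterol diluted 10-fold. The labels do not say whether the letters were separate animals, so p-values speak of these cultures. The letter was a term of the model, and p-values measure the spread left after group and letter.

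Itaconate is made from cis-aconitate by Acod1 (Irg1) in activated macrophages and has been described as anti-inflammatory. In mitochondria it is broken down through itaconyl-CoA. Type I interferon acts on interferon-stimulated response elements, and its target genes restrict viruses, process antigen or attract T cells. Fatty acids and sugars act on hepatocyte genes through other factors, among them the PPARs, the sterol regulatory element-binding proteins and the glucose-sensing factor Mlxipl. The 2 by 2 design asks whether the response to itaconate in these cells is different when lipid is present.

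Library totals were 22346049 to 35512004 expected counts. Hepatocyte markers (18 of 19 listed genes tested, Alb, Apoa1 and Ttr among them) summed to 40706 to 55845 CPM in untreated and 32215 to 52239 CPM in lipid + itaconate-treated cells. Of the other cell types, 1 of 9 stellate cell markers (Reln), 2 of 6 cholangiocyte markers and 11 of 14 macrophage markers passed the filter. The lipid + itaconate library B stood apart from the other libraries of its group, with a chi-square per gene of 86.9, 103 and 120 against them. The lipid + itaconate library C had the lowest sample weight of all libraries in limma-voom, 0.296 against 0.648 for B. It also had the highest mitochondrial share of counts, 6.01%. Counts that moved by over 1.5 times without the lipid + itaconate library B are given both ways.

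Cxcl10 was the gene whose response to itaconate differed with lipid, at 1 of 11675 genes (0.00857%) with an adjusted p under 0.05 by edgeR's quasi-likelihood test with Benjamini-Hochberg adjustment. At an unadjusted p under 0.05, 1004 genes (8.6%) were counted, 539 with a positive (4.62%) and 465 with a negative difference of differences (3.98%). On library totals without TMM scaling, 299 were positive and 640 negative. The same model called 1432 genes (12.3%) for the effect of itaconate averaged over both lipid states and 7165 genes (61.4%) for the effect of lipid averaged over both itaconate states. The standard error of the interaction had a median of 0.103 (log2) against 0.0516 for the averaged effects, because it is a sum of 4 group means and not a mean of differences. For 9388 genes (80.4%) the 95% interval of the interaction lay within 1.5-fold in either direction. That share was 17.9% below 5 CPM, 84.3% from 5 to 20 CPM, 97.3% from 20 to 100 CPM and 98.1% above. DESeq2's Wald test called 36 genes, 9 of them in the interferon response list, and limma-trend called 1. Without the lipid + itaconate library B the edgeR count was 4 (Cxcl10, Arrdc4, Pml and Crot). Without the lipid + itaconate library C it was 0, and with any 1 library left out it was 0 to 8.

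Cxcl10 encodes a chemokine that interferon induces and that attracts T cells through Cxcr3. The gene lies on chromosome 5 of GRCm38 at chr5:92346638-92348889 on the minus strand. Its level was 170.3, 134, 156 and 172 CPM in untreated libraries A, B, C and D and 126, 109, 109 and 129 CPM in the itaconate-treated libraries of the same letters. In lipid-treated cells it was 65.1, 53.1, 57.9 and 74.5 CPM, and in lipid + itaconate-treated cells 69.3, 54.1, 63 and 73.1 CPM. Every untreated library was above every itaconate-treated library, and the ranges of the lipid and the lipid + itaconate libraries overlapped. Itaconate changed Cxcl10 by −0.41 (log2, adjusted p = 0.000117, edgeR) without lipid and by 0.053 (adjusted p = 0.597, edgeR) with lipid. The difference of differences was 0.47 ± 0.0653 (SE, log2, adjusted p = 0.0299, edgeR), positive in 4 of 4 letters (0.53, 0.32, 0.64 and 0.39 for A to D). On the linear scale it was 41.9 ± 11.7 CPM (SD, n = 4 letters), where fold changes that multiply do not give 0. The log2 estimate was 0.41 to 0.51 in 32 other settings. Of 33 settings including a linear scale, 14 kept the adjusted p under the threshold. With no replicate block the estimate was 0.47 and the adjusted p 0.9996 (edgeR). With 1 library left out, the adjusted p of Cxcl10 was 0.0131 to 0.0445 without the itaconate, lipid or lipid + itaconate library B or the lipid library D, and 0.052 to 0.1701 without any of the other 12 (all of letters A and C, untreated B and D, itaconate D and lipid + itaconate D). Without a whole letter Cxcl10 missed the threshold in all 4 cases, with an adjusted p of 0.0574 (without B) to 0.447 (without A, edgeR). The genes past the threshold were then Ifit1 without letter B and Zc3h11a without letter C, and there were 0 without letter A or D (at an unadjusted p under 0.05, 909 and 653).

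**Figure D1:**
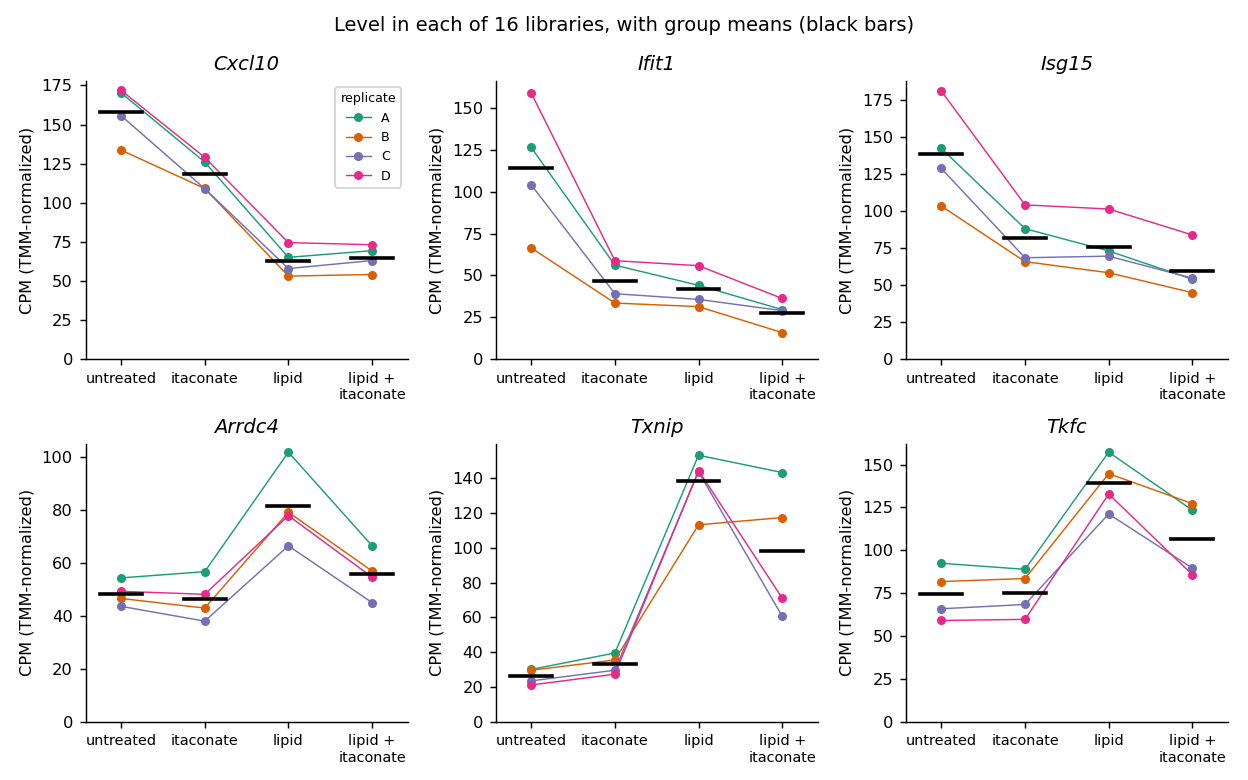
Each panel plots the level of a gene in CPM (TMM-normalized, linear axis from 0) in the 4 groups, with points for the 16 libraries joined by replicate letter and black bars for group means. Cxcl10, Ifit1 and Isg15 were highest in the untreated library of each letter, whereas Arrdc4, Txnip and Tkfc had their highest mean in lipid-treated cells and a lower mean with lipid + itaconate.

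The promoters of Cxcl10, Ifit1 and Isg15 are shown because these interferon-induced genes are among the leading genes on the positive side of the interaction. The 250 bases before the RefSeq start (GRCm38.p6) are given on the gene's strand at chr5:92348890-92349139 (minus), chr19:34640639-34640888 (plus) and chr4:156200819-156201068 (minus), with matches to GAAANNGAAA on either strand in capitals.
Cxcl10: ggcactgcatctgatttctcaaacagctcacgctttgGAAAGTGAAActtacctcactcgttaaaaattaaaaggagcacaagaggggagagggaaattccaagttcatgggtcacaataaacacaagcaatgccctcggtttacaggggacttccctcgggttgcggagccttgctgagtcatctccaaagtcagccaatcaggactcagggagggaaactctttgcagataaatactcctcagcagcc
Ifit1: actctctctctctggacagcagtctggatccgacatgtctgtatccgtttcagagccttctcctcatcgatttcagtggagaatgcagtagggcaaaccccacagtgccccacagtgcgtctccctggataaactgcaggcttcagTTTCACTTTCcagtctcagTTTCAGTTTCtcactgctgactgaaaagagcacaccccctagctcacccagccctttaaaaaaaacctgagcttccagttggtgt
Isg15: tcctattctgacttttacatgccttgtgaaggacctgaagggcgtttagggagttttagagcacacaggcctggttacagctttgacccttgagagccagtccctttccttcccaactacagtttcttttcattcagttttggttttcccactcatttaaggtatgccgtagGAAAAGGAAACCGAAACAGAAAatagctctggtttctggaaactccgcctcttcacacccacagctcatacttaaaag
These letters are the core of the interferon-stimulated response element. They were found 1 time in the Cxcl10, 2 times in the Ifit1 and 3 times, overlapping, in the Isg15 window. Of all 27025 genes with a RefSeq entry, 3.46% held them in this window, and of the 31 interferon response genes with an entry, 16 (51.6%) did. Among the 20 genes with the smallest interaction p described below, 18 had an entry and 4 held the letters, Slfn9 being the fourth. The E-box letters CACGTG were in 2 of these 18 windows (Arrdc4 and Susd1), a share of 11.1%, and in 10.1% of the windows of the genes tested (6.86% of all windows). For the interferon-stimulated letters the share among the genes tested was 3.1%.

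Interferon response genes had positive differences of differences as a group. Of 40 listed genes 39 were tested, and 39 of 39 values were positive, from 0.012 for Ifit2 to 0.72 for Ifit3b (log2). Ifit2 turned negative in 13 of 33 other settings, and 38 or 39 were positive with libraries left out. At an unadjusted p under 0.05, 29 were positive and 0 negative, against 4.62% and 3.98% of all genes, and 0 passed the adjusted threshold in the edgeR fit. The median was 0.35, beside 0.0043 over all genes tested. These genes were lower after itaconate with a median log2 change of −0.65 without lipid, and of −0.30 with lipid. Lipid gave a median of −0.94 without itaconate and of −0.54 with it. Each treatment thus went with a lower level, and the combination with a smaller decrease than the product of both. The summed level of the 39 genes in libraries A to D was 3759, 2913, 3601 and 4619 CPM in untreated and 2511, 1999, 2336 and 2864 CPM in itaconate-treated cells. With lipid it was 2025, 1796, 1879 and 2439 CPM, and with lipid + itaconate 1578, 1349, 1907 and 2139.7 CPM. In letter C the sum with lipid + itaconate was no lower than with lipid, while in letters A, B and D it was. The median difference of differences was 0.16, 0.13, 0.67 and 0.48 in letters A to D. Without the lipid + itaconate library B the median was 0.39, and 31 members were positive at an unadjusted p under 0.05. That count was 22 without letter C, 21 without letter D and 4 with no replicate block. The members were measured in the same 16 libraries and are not independent replicates.

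**Figure D2:**
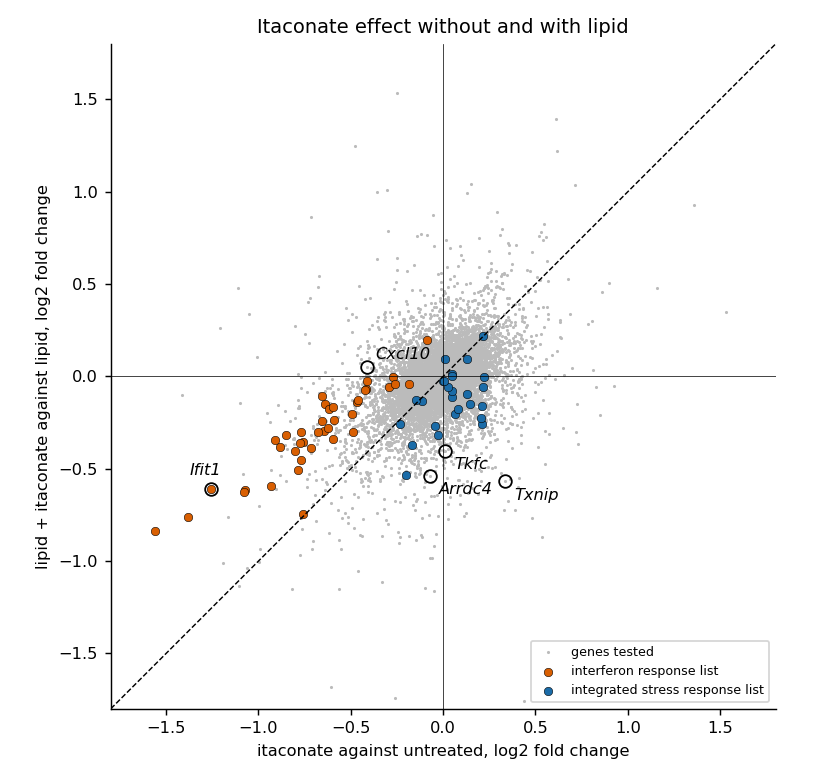
Each grey point is a gene tested, with the log2 change with itaconate in cells without lipid on the x axis and in lipid-treated cells on the y axis, and 10 genes lie outside the axes. Points above the dashed line of equal change have a positive difference of differences: all 39 interferon response genes (orange) lie above it, and 23 of 26 integrated stress response genes (blue) lie below it.

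Ifit1, which binds foreign RNA caps, had the smallest p of the list. It lies at chr19:34640871-34650009 on the plus strand. Its level was 126, 66.4, 104 and 159 CPM in untreated libraries A to D and 56.1, 33.5, 39.1 and 58.8 CPM in itaconate-treated libraries. With lipid it was 44.1, 31.3, 35.7 and 55.8 CPM, and with lipid + itaconate 29.6, 15.8, 28.9 and 36.2 CPM. All untreated libraries were above all others, and library B was the lowest of every group. The difference of differences was 0.64 ± 0.124 (SE, log2, adjusted p = 0.158, edgeR), with 0.60, 0.0024, 1.11 and 0.81 in letters A to D. Letter B was therefore near 0 and the other letters were not.

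Isg15, a ubiquitin-like protein that is conjugated to other proteins after interferon, lies at chr4:156199424-156200818 on the minus strand. Its level was 142, 103, 129 and 181 CPM in untreated libraries and 88.1, 65.8, 68.4 and 104 CPM in itaconate-treated libraries A to D. With lipid it was 73, 58.3, 69.5 and 101 CPM, and with lipid + itaconate 53.9, 44.8, 54.6 and 83.8 CPM. In every letter itaconate went with a lower level in both lipid states, by a smaller factor with lipid. The difference of differences was 0.40 ± 0.0809 (SE, log2, adjusted p = 0.158, edgeR).

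Further members differed in how much of the itaconate change was seen with lipid. Ifit3 went from 85.1 to 31.5 CPM without lipid and from 24.8 to 14.5 CPM with lipid (group means), an interaction of 0.62 ± 0.16 (SE, log2). Ifit3 and Ifit3b are near-identical copies among which expected counts are split, so their separate values are uncertain. Rsad2, which makes an antiviral nucleotide, had means of 383, 178, 224 and 146 CPM in untreated, itaconate, lipid and lipid + itaconate-treated cells (0.46 ± 0.114). Oasl1, a suppressor of Irf7 translation, had 144, 84.2, 81.6 and 59.7 CPM (0.32 ± 0.0684), and Oasl2 had 20.8, 9.89, 5.4 and 3.44 CPM (0.45 ± 0.319, unadjusted p = 0.18, edgeR). Tap1 and Psmb8, which serve antigen processing, had interactions of 0.49 and 0.39 (log2). Their means with lipid were 63.2 and 34.3 CPM, and with lipid + itaconate 57 and 33.6 CPM. Irf1, a transcription factor that interferon gamma induces, had 65.3, 61.4, 39.6 and 45.5 CPM, with its lipid + itaconate mean above its lipid mean.

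Among the 20 genes with the smallest p, 19 missed the adjusted threshold with edgeR. DESeq2's Wald test called 16 of these 19, all but Ccdc82, Susd1 and Zbtb42. All 20 had the same direction in 4 of 4 letters, which the choice by p from the same letters largely fixes (76.9% of the 1004 genes with an unadjusted p under 0.05 did, and 17.4% of all genes). Of the 20, 16 were positive and 4 negative. Beside Cxcl10, Ifit1, Isg15 and Oasl1, 5 positive genes are known to be induced by interferon although they were not on the list. Trex1, a DNA exonuclease that clears cytosolic DNA, had means of 52.5, 32.8, 25.2 and 21.3 CPM in untreated, itaconate, lipid and lipid + itaconate-treated cells (0.43 ± 0.0829, SE, log2). Pml, the scaffold of nuclear bodies, had 85.4, 61.8, 48.5 and 47.1 CPM (0.41 ± 0.0796). Slfn9, of the Schlafen family, had 56.3, 36.7, 20.2 and 19 CPM (0.50 ± 0.102), and Parp9, an ADP-ribosyltransferase that pairs with Dtx3l, had 114, 83.4, 60.6 and 57.1 CPM (0.36 ± 0.0759). Iigp1, a GTPase that attacks the vacuoles of intracellular parasites, was 373, 425, 357 and 395 CPM in lipid-treated libraries A to D and 465, 492, 474 and 473 CPM in lipid + itaconate-treated libraries. Every lipid + itaconate library was above every lipid library, whereas without lipid the itaconate mean (562 CPM) was below the untreated mean (651 CPM). The interaction of Iigp1 was 0.51 ± 0.104 (adjusted p = 0.158, edgeR).

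The other positive genes among the 20 had no shared role. F11 (coagulation factor XI, secreted by hepatocytes) had means of 39.8, 33.9, 29.1 and 32.7 CPM, and Tdo2, which starts tryptophan breakdown in the liver, had 219, 208, 165 and 203 CPM. Tdo2 in lipid-treated libraries A to D was 148, 199.8, 141 and 170.4 CPM, and with lipid + itaconate 195, 210.0, 199 and 207 CPM, higher in each letter. Tor1aip1, an inner nuclear membrane protein, had 207, 174, 115 and 118 CPM (0.29 ± 0.0586, SE, log2). Usb1, an exonuclease that trims a spliceosomal RNA, had 40, 33.5, 35.8 and 38.1 CPM. Ccdc82 had 12.4, 9.94, 8.89 and 11 CPM, Susd1 40.9, 43.5, 22.3 and 29.9 CPM and the zinc-finger gene Zbtb42 41.8, 40.1, 30.9 and 36.6 CPM. Their interactions were 0.42 for F11, 0.39 for Tdo2, 0.34 for Usb1, 0.63 for Ccdc82, 0.33 for Susd1 and 0.31 for Zbtb42 (log2), with adjusted p between 0.158 and 0.168 (edgeR). In all 7 the lipid + itaconate mean was above the lipid mean, which choosing genes by a positive interaction favours.

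**Figure D3:**
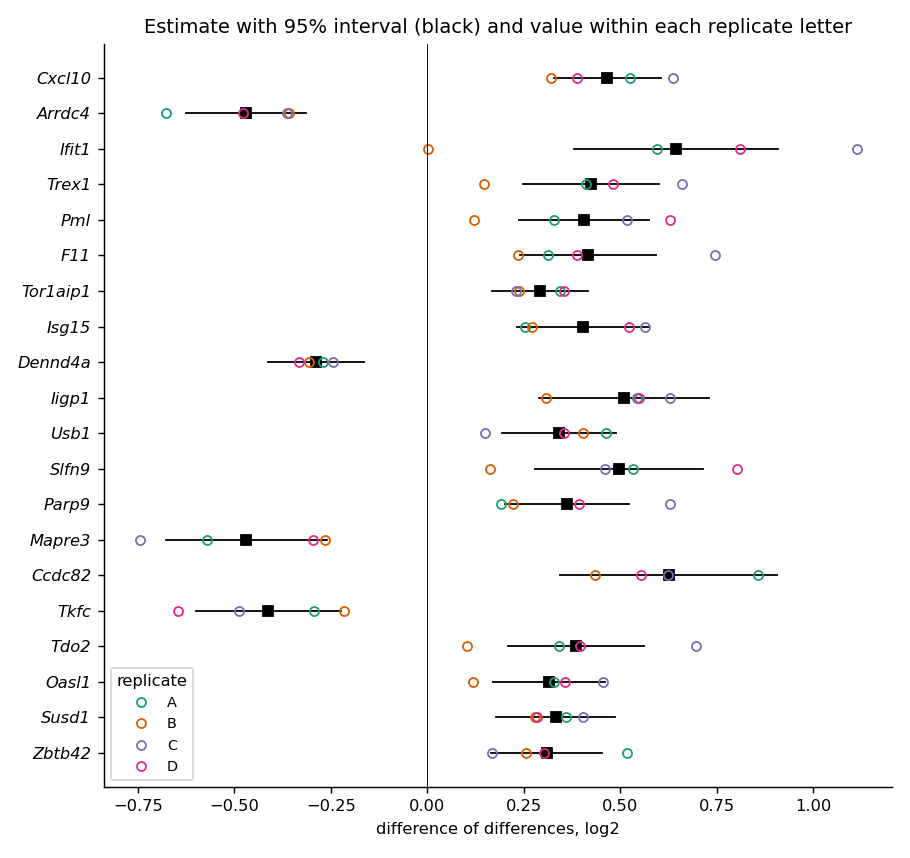
Differences of differences (log2) are plotted for the 20 genes with the smallest p: black squares and lines are the edgeR estimate and its 95% interval, and open circles are the values within replicate letters A to D. All circles lie on the side of the estimate, with Ifit1 in letter B closest to 0 at 0.0024.

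The leading genes of the negative side had their highest level with lipid, which their choice by a negative interaction favours. Arrdc4, an alpha-arrestin that lowers glucose uptake at the cell membrane, was second by p. It lies at chr7:68736995-68749241 on the minus strand. Its level was 54.4, 46.6, 43.6 and 49.3 CPM in untreated libraries A to D and 56.8, 43, 38 and 48.2 CPM with itaconate. With lipid it was 102, 79.3, 66.5 and 77.9 CPM, and with lipid + itaconate 66.6, 57, 45.1 and 54.7 CPM. The untreated and itaconate ranges overlapped, and in each letter the lipid + itaconate library was below its lipid library. The difference of differences was −0.47 ± 0.073 (SE, log2, adjusted p = 0.0521, edgeR), just over the threshold. It passed in 13 of 33 other settings, and its log2 estimate was −0.51 to −0.41 in the 32 of them on that scale.

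Txnip, the related alpha-arrestin that inhibits thioredoxin, was among the 5 genes with the largest averaged rise with lipid (1.99 log2). Its level was 30.1, 29.6, 23.5 and 21.1 CPM in untreated libraries A to D, 39.5, 35.5, 29.6 and 27.4 CPM with itaconate, 153, 113, 144 and 144 CPM with lipid and 143, 117, 60.6 and 71.1 CPM with lipid + itaconate. In the last group letters C and D lay below A and B. The difference of differences was −0.91 ± 0.227 (SE, log2, unadjusted p = 0.00109, adjusted p = 0.257, edgeR), with −0.49, −0.21, −1.58 and −1.39 in letters A to D. Acaca, the acetyl-CoA carboxylase that commits carbon to fatty acid synthesis, had the same split. It was 126, 104, 128 and 138 CPM in lipid-treated libraries and 115, 92, 70.9 and 80.2 CPM in lipid + itaconate-treated libraries, against 47.1 and 50.4 CPM on average without lipid (−0.57 ± 0.144, adjusted p = 0.257, edgeR). Of the 16 lipogenesis genes tested, Acaca alone had an unadjusted p under 0.05, against 8.6% of all genes. Aacs (−0.34) did as well without the lipid + itaconate library B, and the list's median over all libraries was −0.034.

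Tkfc, the triokinase that phosphorylates glyceraldehyde in fructose breakdown, had means of 74.8, 75.1, 139 and 107 CPM in untreated, itaconate, lipid and lipid + itaconate-treated cells. Itaconate changed it by 0.01 (log2) without lipid and by −0.40 with lipid, and the interaction was −0.41 ± 0.0887 (SE, adjusted p = 0.168, edgeR). Mapre3, which binds growing microtubule ends, had 41.8, 47.5, 65.8 and 53.9 CPM (−0.47 ± 0.0987), and the DENN-domain gene Dennd4a had 46.9, 50.2, 60.5 and 53 CPM (−0.29 ± 0.0585). In all 4 leading negative genes lipid alone gave the highest mean of the 4 groups. Choosing genes by a negative interaction from the same values favours a high lipid mean, so this is a description.

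Lists of stress response genes lay on opposite sides of 0. In the integrated stress response list (Atf4 and its targets), 23 of 26 tested genes were negative, with a median of −0.18 (log2). At an unadjusted p under 0.05, 7 were negative and 0 positive, against 3.98% and 4.62% of all genes, and 0 passed after adjustment in the edgeR fit. The list's median was −0.096, −0.10, −0.22 and −0.19 in letters A to D. Atf3, a stress-induced transcription factor, had the smallest p. It was 202, 127, 161 and 180.0 CPM in untreated libraries A to D and 224, 154, 189 and 205 CPM with itaconate, higher in each letter. With lipid it was 171, 118, 168 and 167 CPM, and with lipid + itaconate 165, 133, 109 and 150.0 CPM, higher in letter B and lower in A, C and D (−0.37 ± 0.12, SE, log2, unadjusted p = 0.00726, edgeR). Members named from here on other than the smallest p of a list were chosen after their values were seen. The secreted stress hormone Gdf15 had means of 57.4, 66.6, 56.9 and 54.9 CPM in untreated, itaconate, lipid and lipid + itaconate-treated cells, an interaction of −0.27. Mthfd2, of mitochondrial folate metabolism, had 39.9, 39.2, 66 and 53.1 CPM (−0.29). Chac1, which degrades glutathione, had 13, 15, 21.1 and 17.6 CPM and the lowest value of the list at −0.47. The count of 7 was 2 when the untreated library C or D was left out.

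In the list of endoplasmic reticulum chaperones, 18 of 19 tested genes were positive, with a median of 0.10 (log2) and 0.079, 0.0026, 0.27 and 0.25 in letters A to D. At an unadjusted p under 0.05, 4 were positive and 0 negative, against 4.62% and 3.98% of all genes. The 4 were Pdia4, a disulfide isomerase (0.32 ± 0.0989, SE), Sdf2l1 (0.54), Creld2 (0.23) and Hsp90b1 (0.20). Pdia4 had means of 208, 180.0, 166 and 181 CPM in untreated, itaconate, lipid and lipid + itaconate-treated cells. The summed level of the 19 genes was 6494, 5046, 6408 and 8079 CPM in untreated libraries A to D and 5951, 4930.4, 5893 and 7369.8 CPM with itaconate, lower in each letter. With lipid it was 5155, 4325, 4290.0 and 5642 CPM, and with lipid + itaconate 5085, 4142, 4538 and 6055 CPM, lower in letters A and B and higher in C and D. The count of 4 was 0 without letter D and 9 without the lipid library A or the lipid library B.

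**Figure D4:**
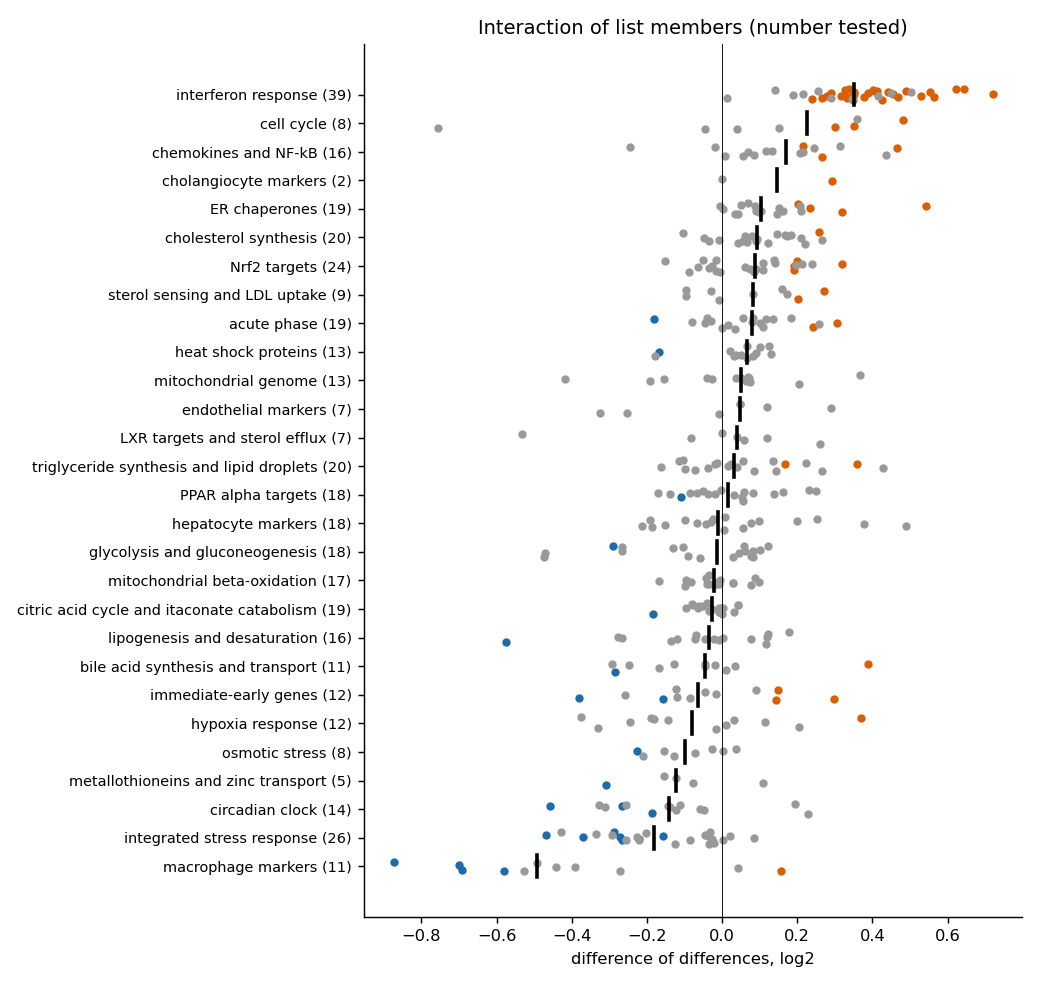
Differences of differences (log2) are plotted for the tested members of 28 gene lists, sorted by list median (black bars), with the number tested in brackets. Orange points are positive and blue points negative at an unadjusted p under 0.05 (edgeR), grey points the rest. Interferon response genes lie at the top with a median of 0.35, and integrated stress response genes and macrophage markers at the bottom with medians of −0.18 and −0.49.

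Macrophage markers were the list with the lowest median, −0.49 (log2) over 11 genes, all but Cd68, Cd5l and Marco at under 9 CPM in every group mean. Of these, 9 were negative. At an unadjusted p under 0.05, 4 were negative (Lyz2, C1qb, Csf1r and Adgre1) and 1 positive (Cd68), against 3.98% and 4.62% of all genes. Lyz2, the macrophage lysozyme, was 5.19, 6.38, 6.34 and 4.27 CPM in untreated libraries A to D, 6.92, 9.82, 8.57 and 6.1 CPM with itaconate, 4.18, 6.76, 6.11 and 4.99 CPM with lipid and 3.81, 6.46, 5.48 and 5.12 CPM with lipid + itaconate (−0.58 ± 0.157, SE, unadjusted p = 0.00206, edgeR). It was higher with itaconate in every letter without lipid and in letter D with lipid. Csf1r, the receptor that macrophages need to survive, had means of 2.54, 2.69, 2.49 and 1.46 CPM (−0.87). The complement gene C1qb had 4.35, 4.46, 3.23 and 2.05 CPM (−0.69). The summed level of the tested markers was 193, 238, 309 and 264 CPM in untreated libraries A to D and 174, 235, 266 and 240.1 CPM with itaconate, and 241, 297, 340.1 and 320.2 CPM with lipid and 223, 260.4, 315 and 328 CPM with lipid + itaconate. Cd68 made up most of it, at 196 CPM of the untreated sum on average. Without the lipid + itaconate library B, 8 members were negative at an unadjusted p under 0.05. In bulk samples fewer macrophages and less RNA of these genes per cell cannot be told apart. The part of macrophage RNA in the interferon response values was not tested. Endothelial markers (7 tested, 0 at an unadjusted p under 0.05 in edgeR, Pecam1 the smallest p at −0.25) had a median of 0.047. Spp1, of the cholangiocyte list, had means of 721, 633, 368 and 394 CPM (0.29 ± 0.0988). Reln, the stellate marker tested, had −0.032 ± 0.125.

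Chemokine and NF-kB genes were positive in 14 of 16 cases, 3 of them at an unadjusted p under 0.05 (Cxcl10, Nfkbiz and Nfkb1), against 4.62% of all genes. The list's median was 0.17, with letter values of −0.22, 0.18, 0.42 and 0.16 for A to D. Without letter C 8 were positive and 8 negative, with a median of 0.024, and without the lipid + itaconate library B 5 had such a p (Nfkb2 and Ccl2 in addition). Nfkbiz, which directs NF-kB to secondary response genes, had means of 38.8, 41.5, 16.5 and 21.3 CPM (0.27). Socs3, a feedback inhibitor of cytokine signalling and the smallest p among 19 acute phase genes, had 32.1, 34.6, 18.8 and 25.1 CPM (0.31 ± 0.0916). Of 14 circadian clock genes 12 were negative, 3 of them at an unadjusted p under 0.05, against 3.98% of all genes. The 3 were Per2 (−0.46 ± 0.135), Cry2 (−0.27) and Cry1 (−0.19). The clock list differed between letters, with medians of −0.0038, 0.14, −0.65 and −0.20 in A to D. Without letter C 9 of the 14 were negative with a median of −0.0057, and without the lipid + itaconate library B 6 had such a p. Of 8 cell cycle genes 6 were positive and 2 negative, from −0.76 to 0.48 (log2). At an unadjusted p under 0.05, 3 were positive and 0 negative, against 4.62% and 3.98% of all genes. The 3 were the replication licensing genes Mcm2 (0.35), Mcm3 (0.30 ± 0.0771) and Mcm5 (0.48). Mcm3 had means of 52.3, 45.6, 51.5 and 55.3 CPM. The zinc exporter Slc30a1 had 124, 140.4, 157 and 143 CPM (−0.31 ± 0.106), with values of −0.066, −0.039, −0.73 and −0.40 in letters A to D.

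Among Nrf2 targets, the genes of antioxidant defence, 24 were tested and 4 were positive at an unadjusted p under 0.05, with a median of 0.087, and 0 were negative, beside 4.62% and 3.98% of all genes. Gsta4, a glutathione transferase for lipid aldehydes, had means of 225, 253, 201 and 258 CPM (0.19 ± 0.0583, SE, log2), and G6pdx, which feeds NADPH production, had 58.8, 58.3, 46.2 and 57.1 CPM (0.32). Gclc, the rate-limiting enzyme of glutathione synthesis, had 907, 1054, 569 and 755 CPM, an interaction of 0.20 ± 0.128 with a 95% interval of −0.075 to 0.47. Gsta3 had −0.087 with an interval of −0.32 to 0.14. Without the lipid + itaconate library B it had −0.19 (unadjusted p = 0.047, edgeR), and 1 member was then negative at that level.

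Over 7 lists of lipid metabolism, 7 of 107 genes (6.54%) had an unadjusted interaction p under 0.05, beside 8.6% of all genes. Without the lipid + itaconate library B 17 (15.9%) did, beside 11.2% of all genes. Of 17 tested genes of mitochondrial beta-oxidation 0 reached an unadjusted p under 0.05 with edgeR, with the smallest p for Hadh (−0.17 ± 0.103) and a median of −0.022. In the fit without the lipid + itaconate library B 2 of the 17 did, Hadh (−0.27) and Decr1 (−0.18). Hadha, the trifunctional protein's alpha subunit, had means of 117, 112, 92.7 and 88.7 CPM and an interaction of −0.0064 (95% interval −0.14 to 0.13). The intervals were −0.21 to 0.14 for Eci2 and −0.069 to 0.24 for Echs1, which act on unsaturated and enoyl-CoA intermediates. Aldh1b1, an aldehyde dehydrogenase at about 3 CPM, had a wide interval of −0.81 to 0.34, and Adh7 was under the filter. Of 18 PPAR alpha targets 1 had an unadjusted p under 0.05, Creb3l3 (−0.11 ± 0.0511), although lipid changed it by 1.06 (log2). Of 20 cholesterol synthesis genes 16 were positive and 1, Hmgcs1, had an unadjusted p under 0.05 (means of 269.9, 208, 128 and 117 CPM, 0.26 ± 0.118). The cholesterol list's median was −0.073, 0.071, 0.45 and 0.069 in letters A to D, and without letter C 10 were positive and 10 negative with a median of −0.0017. Leaving out the lipid + itaconate library B gave 2 with such a p, Hmgcs1 and Lss. Npc2, which carries cholesterol out of lysosomes, had 0.20, and the lipid droplet coat gene Plin3 0.17 ± 0.057. Lpcat3 (0.26, an LXR target) had the smallest p of its list and missed an unadjusted 0.05, which it passed without the lipid + itaconate library B (0.36, unadjusted p = 0.00198, edgeR), as did Abcg8 (−0.60).

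Among the remaining lists, the smallest p were those of the bile acid hydroxylase Cyp8b1 (0.39 ± 0.119, means of 9.02, 8.69, 13.9 and 17.4 CPM), the hypoxia-induced gene Ndufa4l2 (0.37), the myo-inositol transporter Slc5a3 (−0.23), fumarase Fh1 (−0.18), the small heat shock protein Hspb8 (−0.17) and the immediate-early gene Ier2 (0.14). All 6 had an unadjusted p between 0.0049 and 0.0371 (edgeR) and missed the adjusted threshold. Cyp8b1, Ndufa4l2, Ier2 and Hspb8 went against most members of their lists. Negative were 8 of 11 bile acid genes (median −0.045), 7 of 12 hypoxia genes (−0.081) and 8 of 12 immediate-early genes (−0.065). Of 13 heat shock genes 11 were positive (0.067). Slc10a1 of the bile acid list (−0.28) also had an unadjusted p under 0.05 (edgeR). For the mitochondrial genome (13 genes, mt-Co3 −0.42 ± 0.288) and the hepatocyte markers (18 genes, Foxa2 0.25 ± 0.136), no gene reached that level: 0 had an unadjusted p under 0.05 by edgeR. The hepatocyte marker Cps1 did without the lipid + itaconate library B (−0.39).

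The interaction was also counted among genes that responded to itaconate on average. The estimates of the average and of the interaction are orthogonal in the balanced design, but their p-values share a gene's dispersion and level, so the shares below are a description. An unadjusted interaction p under 0.05 was found for 5.86% of genes below 5 CPM, 7.41% from 5 to 20 CPM, 10.2% from 20 to 100 CPM and 9.29% above. Of the 1432 genes called for the average, 233 (16.3%) had an unadjusted interaction p under 0.05, against 7.53% of the other genes. In 156 of the 233 the interaction was opposite in sign to the average effect, a smaller itaconate response with lipid, and in 77 it had the same sign. The imbalance was in the 767 genes that fell with itaconate (115 opposite and 33 same), while the 665 genes that rose had 41 opposite and 44 same. Without letter C the split over both directions was turned, with 85 opposite and 116 same. The genes that fell then had 76 opposite and 64 same, and those that rose had 9 and 52. Of the 7165 genes of the averaged lipid effect, 698 (9.74%) had such a p, against 6.78% of other genes, 439 opposite and 259 same. Without the lipid + itaconate library B these were 485 opposite and 423 same. Across genes, the itaconate changes without and with lipid had a Pearson correlation of 0.327, and the lipid changes without and with itaconate 0.825. Genes are not independent replicates, and each pair of changes shares the replicate letters.

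The genes with the largest averaged itaconate effects gave mixed interactions. Beside Ifit1, Ifit3, Ifit3b, Oasl2 and Rsad2, which fell most, the genes that rose most were Dppa3 (0.32 ± 0.205), Mmp12 (−0.39 ± 0.213), Olfml2b (0.20 ± 0.185), Gm26917 (0.48 ± 0.284) and the neutrophil chemokine Cxcl1 (0.31 ± 0.15), all with unadjusted p of at least 0.0522 (edgeR). Of the genes that lipid raised most beside Txnip, Arl4d had −0.44 ± 0.159 (unadjusted p = 0.0136, edgeR), Gm13889 −0.50 ± 0.307, Arvcf −0.12 ± 0.191 and 4933431E20Rik 0.07 ± 0.297. Of those that lipid lowered most, the matrix proteoglycan Prelp went from 10.2 to 0.86 CPM without itaconate and from 9.55 to 0.923 CPM with it (0.24 ± 0.307). Ivl had 0.35 ± 0.306, Cxcl2 −0.25 ± 0.279, Gm18853 0.28 ± 0.447 and the monocyte chemokine Ccl2 0.44 ± 0.317.

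Each letter holds a library of every group and gives its own difference of differences, with log2 CPM at a prior count of 0.5. Across the 11675 genes the values of letters A and B had a Pearson correlation of 0.134 and those of C and D of 0.242, while the other 4 pairs of letters gave −0.044 to 0.048. The median over the 6 pairs was 0.036, against 0.238 for the averaged itaconate effect and 0.736 for the averaged lipid effect. The standard deviation across genes was 0.456 in letter A, 0.405 in B, 0.478 in C and 0.358 in D. With 4 letters, the smallest two-sided p of an exact permutation test on a gene taken alone is 0.125, so single genes were judged with the model across all genes.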

How the data were processed

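RNA was captured by mRNA selection with a stranded kit and sequenced in 16 libraries. Per the labels and the authors' methods, reads were trimmed with cutadapt 1.18, aligned to mm10 with STAR 2.7.0f and quantified with RSEM 1.3.1, and the deposited values are gene-level expected counts with no normalization (5.41% of values were not whole). They were rounded. All 55450 identifiers matched GENCODE vM21 (GRCm38).

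Genes averaging 1 CPM or more were tested with edgeR 4.0.16 (R 4.3.3): TMM normalization, group and replicate letter as terms, quasi-likelihood tests and Benjamini-Hochberg adjustment over 11675 genes, with a threshold of 0.05. SE is the estimate divided by the root of its F. Levels are TMM-normalized CPM, and the expected counts per library set their precision. The letters were taken to pair the libraries because libraries sharing a letter deviated together from the means of their groups. Their correlations were 0.131 to 0.543 over all 24 pairs (median 0.326). Pairs of other letters had a median of −0.14, which centring on group means pushes below 0, so it adds no separate support. The scripts were tested on simulated data. Alternatives used DESeq2 1.42.0 and limma 3.58.1, other filters and scalings, and libraries or letters left out.

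Members and lists were chosen with earlier results of these data known. Genes named were the 20 with the smallest interaction p (any past the threshold, then those of at least 5 CPM with a symbol other than a Gm or Rik name), the smallest p of each of 29 lists and the 5 largest averaged rises and falls per treatment. Also named were Gclc and the genes that the study's text names, Eci2, Echs1, Gsta3, Hadha, Aldh1b1 and Adh7. Of the genes so named, 1 is not reported here. Duplicates were looked for among libraries of a group (chi-square per gene at least 8.55), and none was found.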

Additional observations from a re-analysis of the deposited data

Results flagged for a closer look

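Cxcl10 was the gene whose itaconate effect differed between cells with and without lipid by the test of the difference itself (0.47 log2, adjusted p = 0.0299, edgeR). Outlying libraries were looked for in 160 sets of 4 values, the levels of the 20 leading genes by group, the within-letter differences of the named genes and of 4 lists, and the library totals. A value was singled out where its gap to the nearest other value, as a share of the range, exceeded Dixon's 95% critical value. Chance does so in about 1 of 20 sets, and 5 (3.12%) were found. Iigp1 was 652 CPM in itaconate-treated library D, above the other libraries of its group. Within-letter differences of differences stood apart for Plin3 in letter B (−0.0054 log2), Ndufa4l2 in letter A (0.87) and Prelp in letter C (0.70). The total of the untreated library A, 22346049 counts, was the lowest of its group.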

How the results depend on the processing

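The count of 1 gene past the adjusted threshold for the interaction was 0 with no replicate block, 0 with the replicate block taken by differencing within letters, 0 on library totals only, 2 with RLE normalization, filterByExpr, a minimum of 5 CPM, limma-voom with sample weights, a filter on TMM-normalized CPM or a robust fit, 9 on a linear scale, 36 by DESeq2 and 231 with no filter on low counts, 23 of these under the filter. The cause was not tested. Cxcl10 had an adjusted p of 0.23 (limma) with the replicate block by differencing, and over all settings its adjusted p was 2.46e-06 to 0.9996 (edgeR, limma and DESeq2). Leaving out libraries or letters gave 0 to 8 genes. The highest counts were 8 without the lipid library B and 4 without the lipid + itaconate library B. The count was 0 without any 1 library of letter A, the untreated library B or the lipid, itaconate or lipid + itaconate library C. It was also 0 without the untreated, itaconate or lipid + itaconate library D. The filter on TMM-normalized CPM, the robust fit, library totals only and the counts over lists were chosen after seeing the data.

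At an unadjusted p under 0.05, 449 genes were counted with no replicate block, 1542 with no filter and 653 (without letter D) to 1309 with libraries left out. The averaged itaconate count was 219 with no replicate block, 2150 with sample weights, and 428 (without letter A) to 2530 (without the lipid + itaconate library C) with libraries left out. The averaged lipid count was 6029 to 7245. Interaction counts among genes of the averaged itaconate effect were 80 (without letter D) to 232, and of the lipid effect 407 (without letter D) to 908, and the median correlation of letters was −0.015 to 0.048.

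With no replicate block, list counts were 4 for interferon response, 1 for the integrated stress response, 2 for macrophage markers and 0 for chaperones. With no filter they were 12, 8 and 7 for the last 3. Macrophage markers had 1 at a minimum of 5 CPM and 7 by differencing within letters, and chaperones 7 by differencing, 7 with sample weights and 2 on library totals. With libraries left out the ranges were 21 to 33 (interferon response), 2 to 10 (integrated stress response), 3 to 8 (macrophage markers) and 0 to 9 (chaperones).

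Signs turned for uncalled genes: on a linear scale for Cxcl1 (−0.11 of its mean), Olfml2b (−0.0053), 4933431E20Rik (−0.077) and Hadha (0.0047), and with sample weights for Reln (0.0086) and Hadha (1.79e-05). With libraries left out the log2 ranges crossed 0 for 4933431E20Rik (−0.16 to 0.24), Ccl2 (−0.047 to 0.77), Cxcl2 (−0.47 to 0.032), Eci2 (−0.095 to 0.014), Gm18853 (−0.038 to 0.60), Gsta3 (−0.19 to 0.015), Hadha (−0.063 to 0.023) and Reln (−0.19 to 0.083). Ifit2 (0.012) was −0.00076 at a minimum of 5 CPM, −0.00997 with limma-trend and by differencing (replicate block), −0.048 with sample weights, −0.012 on library totals and −0.18 to 0.16 with libraries left out. The other genes named with a value of the interaction over all libraries kept their direction under all settings run. Genes under 5 CPM had a median SE of 0.279 (log2), so that changes under 1.5-fold were mostly not detectable there.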
